A study of Mus musculus with 6 samples.

Results

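The genes of Wnt signalling were followed in mouse tailbuds, as 47 listed genes among the 37310 gene identifiers counted: 16 Wnt ligands, 10 Frizzled receptors, the co-receptors Lrp5 and Lrp6, 4 R-spondins, 4 TCF/LEF transcription factors, 5 intracellular or nuclear feedback genes and 6 secreted antagonists. All 47 were found by symbol, and 46 had enough counts to be tested; only Sfrp5 did not. RNA with poly(A) tails was sequenced from tailbuds of embryonic day 9.5, cut off in front of the last somite, in 3 wild-type (WT/WT, here WT) libraries and 3 libraries of embryos homozygous for Danforth's short tail (Sd/Sd), all on the outbred CD-1 background and with no treatment named. Danforth's short tail is a spontaneous semidominant mutation, an insertion close to the transcription factor gene Ptf1a. It shortens the tail and disturbs the notochord. Some libraries pool tailbuds of more than 1 embryo, with the pooled libraries not named.

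Wnt proteins are secreted, lipid-modified ligands that bind a Frizzled receptor together with LRP5 or LRP6. In the canonical branch this stabilises beta-catenin, which enters the nucleus and switches on genes together with TCF/LEF factors. Several of those genes, such as Axin2, Nkd1, Notum and Dkk1, encode inhibitors of the pathway, so their level is widely read as a gauge of its activity. In the tailbud, Wnt3a maintains the progenitors of the extending body axis and Wnt5a acts mainly through the non-canonical branch. R-spondins raise the number of Frizzled receptors at the cell surface.

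Library totals ran from 41788978 to 62296689 counts. Ptf1a, the gene beside the insertion, gave 0.0521 ± 0.0377 CPM (CPM is the count of a gene scaled to a common library size) in WT and, in Sd/Sd, 18.0 ± 3.65 (SD, 3 libraries each), so its level separated all 6 libraries by their labels. Tailbud identity was plain in every library: T, the Brachyury factor of posterior mesoderm, stood at 77.1 to 203 CPM, the caudal homeobox gene Cdx2 at 66.9 to 188 CPM and the presomitic gene Tbx6 at 58.8 to 101 CPM, while Cdx4, like every identifier of chromosome X, is listed at 0. The libraries Sd/Sd 2 and Sd/Sd 3 stood apart. A somite marker list of 10 genes summed to 490 CPM in Sd/Sd 2 and 42.6 CPM in Sd/Sd 3, against 225 to 328 CPM in WT. A list of 8 tailbud progenitor genes went the other way, at 308 CPM in Sd/Sd 2 and 733 CPM in Sd/Sd 3, against 488 to 671 CPM in WT.

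To order the genes by level, CPM was divided by the length of all exons of a gene, in kilobases. Of the 47 genes, 19 reached 10 CPM per kilobase in WT. Wnt5a was the highest ligand in WT at 35.4 ± 3.64 CPM per kilobase (SD, n = 3), and Wnt5b followed at 23.8 ± 4.64 CPM per kilobase. Their WT ranges did not overlap. Wnt6, a ligand of surface ectoderm, Wnt2 and Wnt3a came next in level at 15.1 ± 1.54, 11.3 ± 4.30 and 8.46 ± 1.12 CPM per kilobase in WT. Wnt6 overlapped Wnt2 in range, and Wnt2 overlapped Wnt3a. Wnt4, Wnt7a and Wnt3 formed clear lower steps at 4.47, 3.22 and 2.59 CPM per kilobase. The 8 remaining ligands lay at 0.320 to 1.81 CPM per kilobase in WT, each overlapping its neighbour in the order. The first 10 ligands kept the same order in the Sd/Sd means.

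Among the receptor genes, Fzd2 and Fzd7 had the highest WT levels, 38.4 ± 3.60 and 28.2 ± 3.91 CPM per kilobase (SD, n = 3), followed by Fzd1 at 13.2 ± 1.05. The remaining 7 Frizzled genes lay at 0.727 to 4.35 CPM per kilobase in WT. Lrp6 and Lrp5 had overlapping WT levels of 11.8 ± 0.231 and 11.7 ± 0.368 CPM per kilobase. Rspo3 was far above the other R-spondins, with a WT level of 20.1 ± 2.80 CPM per kilobase against 4.91 ± 1.13 for Rspo1, 0.505 for Rspo4 and 0.354 for Rspo2. Tcf7 led the TCF/LEF factors at 43.4 ± 0.938 CPM per kilobase in WT, ahead of Lef1 at 27.8 ± 3.32 and Tcf7l1 at 26.1 ± 1.97, whose ranges overlapped. With the length of the longest coding transcript in place of all exons, Lef1 ranked above Tcf7, and Lrp5 above Lrp6. Tcf7l2 was lower, at 2.14 CPM per kilobase. Sfrp2 and Sfrp1, which bind Wnt proteins outside the cell, had WT levels of 29.9 ± 2.08 and 24.1 ± 1.70 CPM per kilobase, and the antagonist Wif1 only 0.560.

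**Figure D1:**
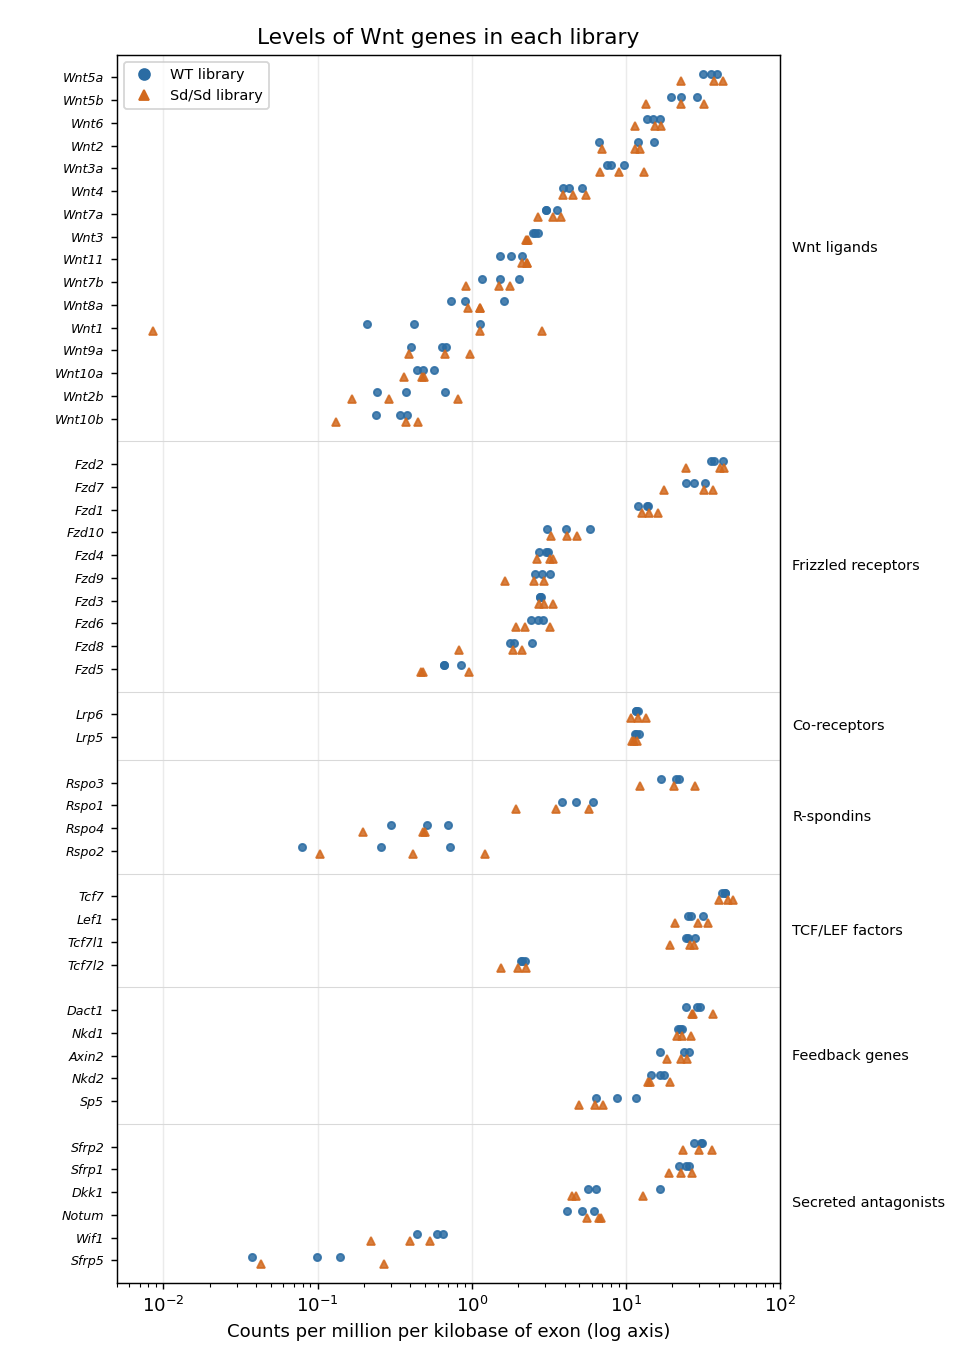
Level of each Wnt gene in each library, in CPM per kilobase of exon on a log axis, with WT libraries as circles and Sd/Sd libraries as triangles, grouped by role and ordered by the WT mean. WT and Sd/Sd overlap for nearly every gene, and Wnt1 spans the widest range; Sfrp5 in Sd/Sd 1, at 0, is not drawn.

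The comparison of Sd/Sd with WT asked whether the expression of these genes differs in the mutant tailbud. Tested by edgeR quasi-likelihood with Benjamini-Hochberg adjustment over 15471 genes at a threshold of 0.05, 0 of the 46 tested Wnt genes were higher in Sd/Sd and 0 were lower. Of all tested genes 0.0388% were called higher and 0.0194% lower, 0.0582% in all. DESeq2, which called 0.108% of its genes higher and 0.114% lower, and limma-voom also called 0 of the 46. At an unadjusted p under 0.05, 0 were higher and 1, Sp5, was lower, against 0.944% and 1.95% of all tested genes (2.9% in all). The median log2 fold change of the Wnt genes was -0.02, with 20 positive and 26 negative, and that of all tested genes was -3.4e-04.

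In the main fit the difference was bounded within a doubling or halving for most of these genes. Within 0.5 in log2 fold change it was not bounded for most. Both shares lay below those of all tested genes. In 34 of 46 (73.9%) the 95% interval of the log2 fold change lay within 1 either way, that is, within a doubling or halving, against 77.6% of all tested genes. In 19 of 46 (41.3%) it lay within 0.5 either way, against 57.7% of all tested genes. The 12 genes with wider intervals were Wnt1, Wnt2, Wnt2b, Wnt9a, Wnt10b, Fzd8, Rspo1, Rspo2, Rspo4, Sp5, Dkk1 and Wif1, and in this fit their intervals reached a 2-fold change in at least 1 direction. With the replicate number as a block, 39 of 46 (84.8%) lay within 1, against 78.6% of all tested genes, and the 7 others were Wnt1, Wnt2, Wnt10b, Rspo1, Rspo2, Rspo4 and Wif1. In bulk tissue, fewer expressing cells and less RNA per cell cannot be told apart.

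**Figure D2:**
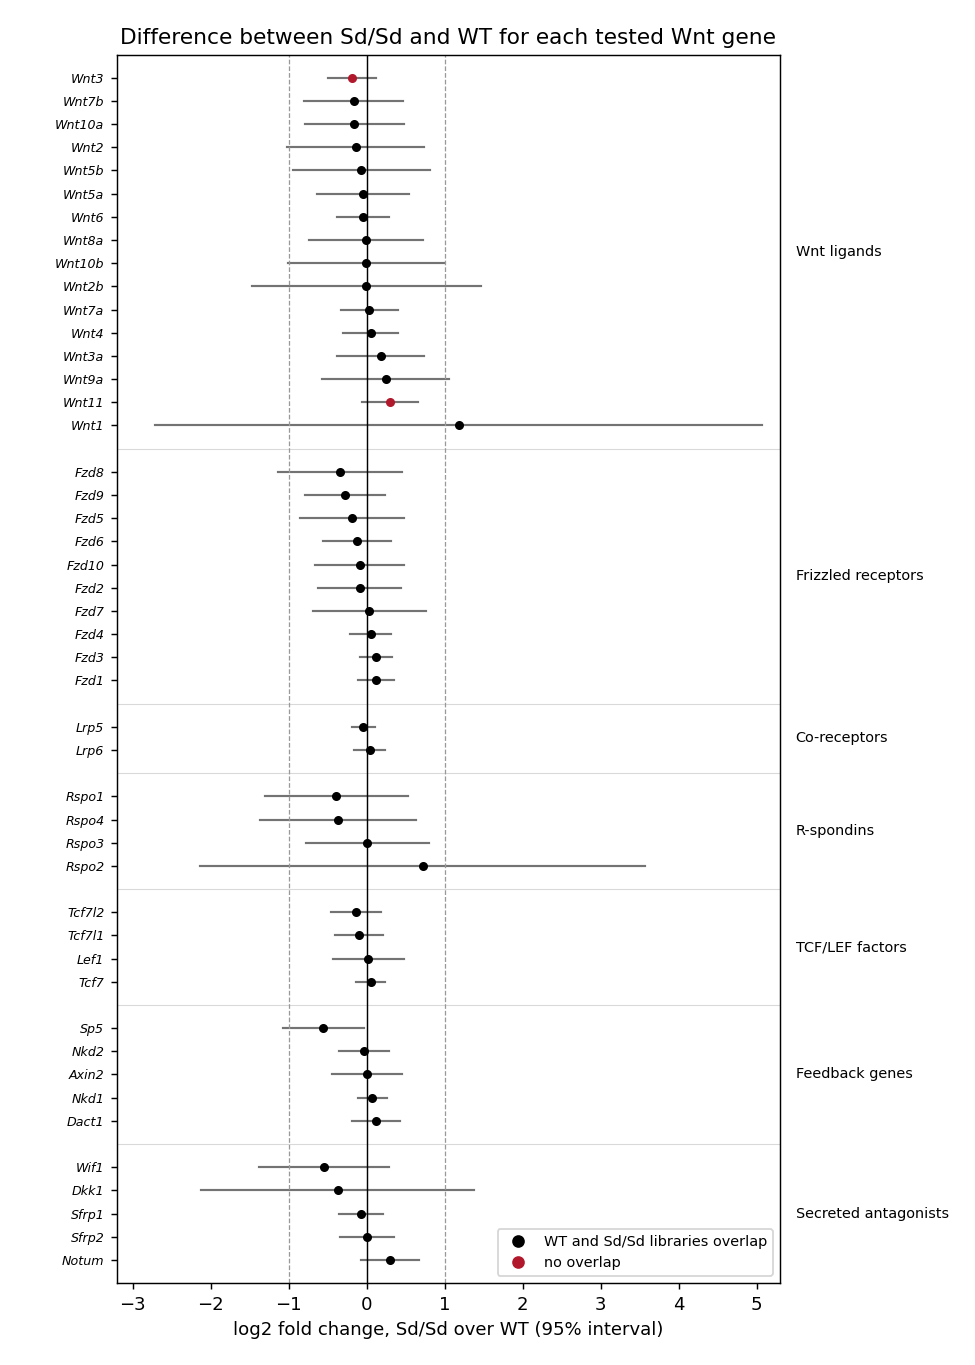
log2 fold change of Sd/Sd over WT with its 95% interval for the 46 tested Wnt genes, by role; dashed lines mark -1 and 1, and red points mark genes whose WT and Sd/Sd libraries do not overlap. Wnt3 and Wnt11 are the red points, and the interval of Sp5, from -1.08 to -0.03, is the only one that leaves out 0.

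Among the ligands, 1 gene, Wnt11, was higher in every Sd/Sd library than in any WT library, and 1, Wnt3, was lower; over all tested genes 3.26% were separated upwards and 4.42% downwards (7.68% in all). Wnt11, a ligand of non-canonical signalling and cell movement, measured 6.28, 8.74 and 7.46 CPM in WT 1 to 3 and 8.78, 9.42 and 9.48 CPM in Sd/Sd 1 to 3. The highest WT and the lowest Sd/Sd library were almost level. Its log2 fold change was 0.30 (SE 0.16, 95% interval -0.06 to 0.66, edgeR adjusted p = 1.00). Wnt3, a canonical ligand needed for gastrulation, measured 7.93, 7.74 and 8.22 CPM in WT, against 6.89, 7.01 and 7.12 in Sd/Sd. Both groups were tight and the gap between them small, with a log2 fold change of -0.18 (SE 0.14, 95% interval -0.49 to 0.12, edgeR adjusted p = 1.00).

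The most abundant ligand, Wnt5a, measured 248, 277 and 305 CPM in WT, against 290, 179 and 334 in Sd/Sd. Sd/Sd 2 was the lowest and Sd/Sd 3 the highest of the 6 libraries, so that the Sd/Sd group spanned the whole WT range. The log2 fold change of Wnt5a was -0.05 (95% interval -0.64 to 0.54). Wnt5b, its close relative, had the same extremes, with 52.4, 60.5 and 76.6 CPM in WT, against 60.2, 35.8 and 84.96 in Sd/Sd (log2 fold change -0.07, interval -0.95 to 0.82). Wnt3a, the canonical ligand of the tailbud progenitors, also had them, with 20.97, 22.3 and 26.9 CPM in WT, against 24.8, 18.7 and 36.1 in Sd/Sd. Its log2 fold change was 0.18 (interval -0.38 to 0.74). Wnt8a, another ligand of the early posterior embryo, measured 1.89 ± 0.814 CPM in WT, against 1.87 ± 0.196 in Sd/Sd (SD, n = 3). Wnt4, Wnt6 and Wnt7a had log2 fold changes of 0.05, -0.04 and 0.04, each with an interval within 0.5 either way. The other 6 ligands, Wnt2, Wnt2b, Wnt7b, Wnt9a, Wnt10a and Wnt10b, ran from -0.17 for Wnt7b to 0.24 for Wnt9a.

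Receptor genes showed small differences. Fzd2 measured 156, 131 and 136 CPM in WT, against 149, 158 and 89.95 in Sd/Sd, and Sd/Sd 3 alone lay below the WT range. Fzd7, a close relative of Fzd2, repeated this pattern, with 147, 112 and 125 CPM in WT, against 147, 165 and 80.6 in Sd/Sd. Their log2 fold changes were -0.09 (interval -0.62 to 0.44) and 0.04 (interval -0.68 to 0.76). Over the 10 Frizzled genes the log2 fold change ran from -0.34 for Fzd8 to 0.13 for Fzd1, with 4 positive and 6 negative. The co-receptors were even across the libraries. Lrp5 measured 118, 111 and 113 CPM in WT, against 110, 115 and 107 in Sd/Sd (log2 fold change -0.04, interval -0.18 to 0.10). Lrp6 measured 160, 164 and 158 CPM in WT, against 185, 147 and 163 in Sd/Sd (log2 fold change 0.04, interval -0.16 to 0.23).

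Rspo3, the main R-spondin of the tailbud by level, measured 52.3, 65.4 and 68.6 CPM in WT, against 63.3, 37.9 and 86.7 in Sd/Sd. Like Wnt5a it was lowest in Sd/Sd 2 and highest in Sd/Sd 3 (log2 fold change 0.01, interval -0.78 to 0.81). Rspo1 measured 11.9, 9.16 and 7.51 CPM in WT, against 6.87, 11.1 and 3.73 in Sd/Sd (log2 fold change -0.39, interval -1.31 to 0.53), so both groups spread widely and overlapped.

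The TCF/LEF genes overlapped between groups too. Lef1, a nuclear partner of beta-catenin and itself a target, measured 223, 232 and 278 CPM in WT, against 302, 184 and 259 in Sd/Sd (log2 fold change 0.02, interval -0.43 to 0.48). Tcf7, its relative, measured 111, 116 and 115 CPM in WT, against 121, 105 and 129 in Sd/Sd, a log2 fold change of 0.05 (interval -0.13 to 0.24). Tcf7l1, which mainly represses, and Tcf7l2 had log2 fold changes of -0.10 and -0.14, and all 4 intervals lay within 0.5 either way.

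Feedback genes, the usual readout of canonical signalling, gave no common direction: of Axin2, Lef1, Sp5, Nkd1, Nkd2, Dkk1 and Notum, 4 leaned up and 3 down in log2 fold change, and the median was 0.01. Axin2, a scaffold of the complex that destroys beta-catenin, measured 131, 91.1 and 142 CPM in WT, against 126, 101 and 138 in Sd/Sd. The groups had nearly equal means, and the log2 fold change was 0.01 (SE 0.19, interval -0.44 to 0.46). Nkd1, which binds Dishevelled, measured 99.5, 105 and 102 CPM in WT, against 120, 105 and 97.9 in Sd/Sd (log2 fold change 0.07, interval -0.12 to 0.26). Nkd2, its relative, measured 85.7, 79.9 and 69.8 CPM in WT, against 93.4, 67.0 and 69.7 in Sd/Sd (log2 fold change -0.03, interval -0.35 to 0.28). Dact1, another Dishevelled-binding protein, measured 109, 92.5 and 114 CPM in WT, against 137, 101 and 103 in Sd/Sd (log2 fold change 0.12, interval -0.19 to 0.42). None of these 4 genes separated the groups.

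Sp5, a zinc-finger factor gene induced directly by beta-catenin and TCF/LEF, had the smallest p of the 46. It measured 18.5, 13.4 and 24.5 CPM in WT, against 14.8, 10.4 and 13.2 in Sd/Sd. The groups overlapped through Sd/Sd 1 and WT 2, while each Sd/Sd library lay below the WT library of the same number. The log2 fold change was -0.56 (SE 0.23, interval -1.08 to -0.03), with an unadjusted p = 0.0398 and an adjusted p = 1.00 by edgeR. With the replicate block it was -0.53 (interval -0.84 to -0.21, edgeR adjusted p = 0.577). The value leaned on WT 3, the highest library: without WT replicate 3 the log2 fold change of Sp5 was -0.32. Sp8, the related zinc-finger gene of the wider list, looked at after its values were seen, measured 30.8, 22.4 and 34.2 CPM in WT. In Sd/Sd it measured 26.7, 18.9 and 25.6 CPM (log2 fold change -0.30, interval -0.72 to 0.13). Its groups overlapped, and each Sd/Sd library lay below the WT library of its number. How often this holds over all tested genes was not counted.

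Notum, which encodes an enzyme that removes the lipid from Wnt proteins, measured 10.0, 12.6 and 14.9 CPM in WT, against 13.4, 16.6 and 16.1 in Sd/Sd. The groups overlapped through WT 3 and Sd/Sd 1, and the log2 fold change was 0.30 (SE 0.16, interval -0.07 to 0.67), or 0.31 with the replicate block (interval 0.03 to 0.60, edgeR adjusted p = 1.00). Dkk1, a secreted blocker of LRP5 and LRP6, measured 15.5, 13.7 and 40.6 CPM in WT, against 11.5, 10.9 and 31.4 in Sd/Sd. In both genotypes replicate 3 was high and the others low, and the interval around its log2 fold change of -0.37 was wide (-2.12 to 1.37). Within each number Sd/Sd was lower, and with the replicate block the log2 fold change of Dkk1 was -0.38 (interval -0.61 to -0.15, edgeR adjusted p = 0.613). Without WT replicate 3 the log2 fold change of Dkk1 was 0.30, with the opposite sign. Sfrp1 measured 107, 112 and 97.3 CPM in WT, against 99.4, 118 and 83.3 in Sd/Sd (log2 fold change -0.07, interval -0.35 to 0.21). Sfrp2 measured 66.3, 59.2 and 67.5 CPM in WT, against 64.2, 78.5 and 50.6 in Sd/Sd (log2 fold change 0.00, interval -0.34 to 0.35); both spread more in Sd/Sd than in WT. Wif1, a low antagonist gene, measured 1.44, 1.57 and 1.07 CPM in WT, against 1.31, 0.543 and 0.959 in Sd/Sd (log2 fold change -0.55, interval -1.39 to 0.28). It was chosen after its values were seen, and its groups overlapped. Sfrp5, under the filter, had 10, 14 and 3 counts in WT and 0, 32 and 4 in Sd/Sd.

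**Figure D3:**
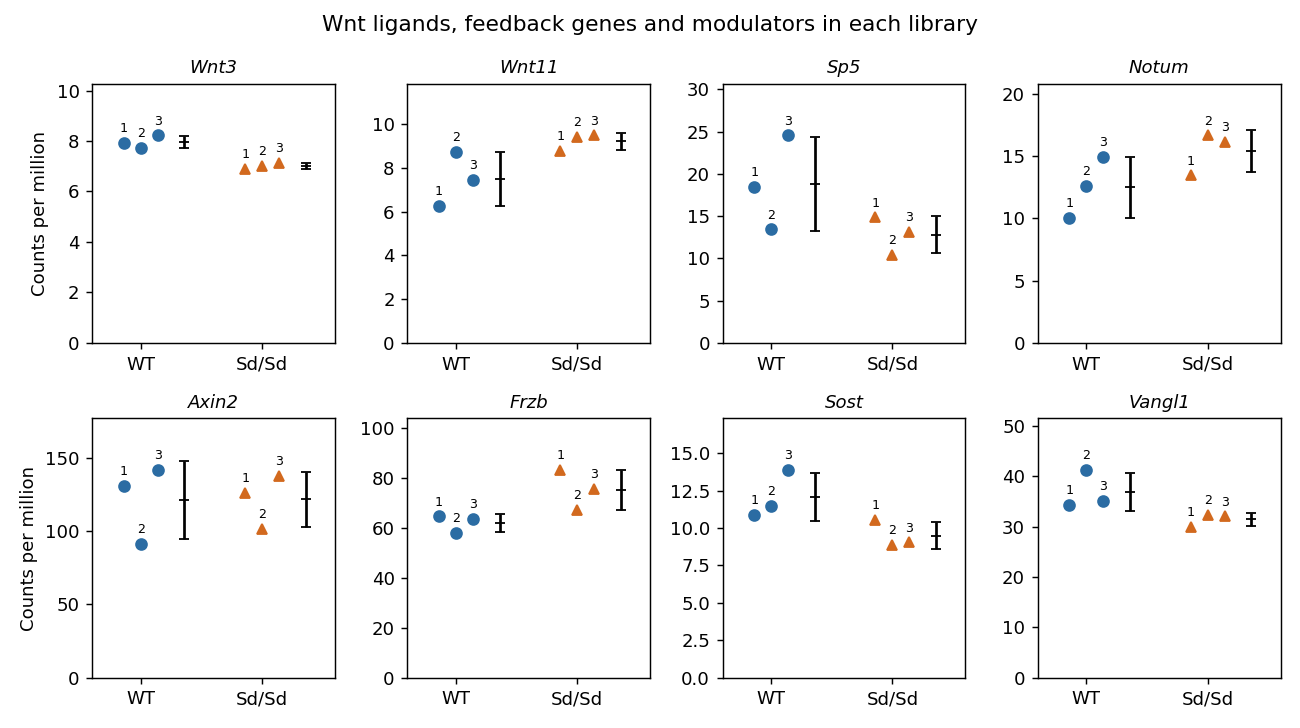
CPM of 8 Wnt genes in each library, numbered by replicate, with the mean and SD of each group (n = 3) as a black bar; every axis starts at 0. Wnt11 and Frzb lie higher and Wnt3, Sost and Vangl1 lower in all Sd/Sd libraries, while Sp5, Notum and Axin2 overlap.

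TCF/LEF factors bind a short DNA motif, searched here as CTTTGAA or CTTTGAT on either strand in the 250 bases before each RefSeq transcription start. Windows were found for 33 of the 47 Wnt genes (41 windows, as some genes have several starts), and 4 windows of 4 genes held the motif (9.76%), against 7.48% of all 32851 windows. All 4 are printed, since they include Sp5, the gene with the smallest p, and Wnt11, which separated the groups, beside Wnt5b and Dkk1, whose groups overlapped. They come from RefSeq on GRCm38.p6, a later build than that of the counts: Sp5 at chr2:70474673-70474922 (plus strand), Wnt11 at chr7:98834862-98835111 (plus strand), Wnt5b at chr6:119449387-119449636 (minus strand) and Dkk1 at chr19:30549497-30549746 (minus strand). Each runs 5′ to 3′ towards the start, with the motif in capitals.
Sp5: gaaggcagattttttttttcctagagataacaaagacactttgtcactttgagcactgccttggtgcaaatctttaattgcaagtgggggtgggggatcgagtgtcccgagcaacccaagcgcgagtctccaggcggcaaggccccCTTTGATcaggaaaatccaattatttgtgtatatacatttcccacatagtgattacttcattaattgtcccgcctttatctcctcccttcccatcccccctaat
Wnt11: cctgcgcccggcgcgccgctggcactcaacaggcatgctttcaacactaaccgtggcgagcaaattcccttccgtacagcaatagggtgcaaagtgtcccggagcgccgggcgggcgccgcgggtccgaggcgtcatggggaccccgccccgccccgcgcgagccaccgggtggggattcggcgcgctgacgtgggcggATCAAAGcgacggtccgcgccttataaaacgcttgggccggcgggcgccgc
Wnt5b: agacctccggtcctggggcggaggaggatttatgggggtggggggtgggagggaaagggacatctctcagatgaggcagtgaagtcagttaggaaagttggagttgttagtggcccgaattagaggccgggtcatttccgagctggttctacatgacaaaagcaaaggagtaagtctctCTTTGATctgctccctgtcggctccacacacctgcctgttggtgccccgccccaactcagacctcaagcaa
Dkk1: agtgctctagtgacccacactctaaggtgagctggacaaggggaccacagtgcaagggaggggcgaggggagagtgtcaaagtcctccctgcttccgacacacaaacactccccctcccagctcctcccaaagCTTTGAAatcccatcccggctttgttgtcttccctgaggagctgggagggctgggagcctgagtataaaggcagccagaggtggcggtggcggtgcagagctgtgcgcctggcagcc
The motif lies 104 to 98 bases before the start in Sp5, 51 to 45 in Wnt11 (as its reverse complement, ATCAAAG), 71 to 65 in Wnt5b and 117 to 111 in Dkk1. These 4 genes had log2 fold changes of both signs, -0.56, 0.30, -0.07 and -0.37, and a match is a description of the letters and not of binding.

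Wnt genes more often spread wider among the Sd/Sd libraries than among the WT libraries. The highest Sd/Sd library exceeded the lowest by more than the corresponding WT ratio in 37 of 46 genes (80.4%), against 67.9% of all tested genes. That ratio was above 2 in 14 of the 46 genes (30.4%) in Sd/Sd and in 7 (15.2%) in WT, against 15.9% and 10.9% of all tested genes. Sd/Sd 3 was the lowest of the 6 libraries for 19 Wnt genes (41.3%), against 24.5% of all tested genes, and Sd/Sd 2 the highest for 15 (32.6%), against 20.3%.

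Sd/Sd 2 and Sd/Sd 3 lay at opposite ends for 15 of the 46. Highest in Sd/Sd 3 and lowest in Sd/Sd 2 were 6 genes, Wnt3a, Wnt5a, Wnt5b, Fzd6, Rspo3 and Tcf7 (13.0%, against 7.67% of all tested genes). The reverse held for 9 genes, Wnt1, Wnt9a, Fzd2, Fzd4, Fzd5, Fzd7, Sfrp1, Sfrp2 and Tcf7l2 (19.6%, against 8.23%). Of the tailbud progenitor genes, 6 of 7 tested were likewise higher in Sd/Sd 3 than in Sd/Sd 2, among them T at 203 and 77.1 CPM and Fgf8, a growth factor of the tailbud, at 35.6 and 12.5 CPM. The exception was Sox2, a factor of neural progenitors, at 21.5 CPM in Sd/Sd 3 and 44.0 CPM in Sd/Sd 2. Of the presomitic genes 7 of 8 were higher in Sd/Sd 3, from Msgn1, a presomitic mesoderm factor, at 63.1 and 17.0 CPM to the nearly level Hes7, at 41.7 and 37.7 CPM, and Lfng, at 49.1 and 47.1 CPM. Mesp2, a factor of the forming somite, went the other way, at 0.510 CPM in Sd/Sd 3 and 8.74 CPM in Sd/Sd 2. The tailbud progenitor list (7 of 8 genes tested, Cdx4 at 0) summed to 488 to 671 CPM in WT, against 308 to 733 in Sd/Sd. The presomitic list (8 of 8 tested, Rspo3 among them) summed to 439 to 564 CPM in WT, against 358 to 574 in Sd/Sd. Neither list had a gene past the threshold. Sd/Sd 3 was also above Sd/Sd 2 for 7 of 7 lateral plate and limb genes and 5 of 6 endothelial genes. It was so for 8 of 12 hindgut, 8 of 12 surface ectoderm and 4 of 7 notochord genes. The reverse held for all 10 somite, 6 neural tube and 3 erythroid genes tested, and for 6 of 8 dorsal neural genes. The part of these tissues in the Wnt values was not tested. The marker genes that did pass between genotypes belong to other lists. By edgeR, Shh, a signal of notochord and gut, was lower in Sd/Sd (log2 fold change -1.49, adjusted p = 0.0438) and so was its relative Ihh (-1.93, adjusted p = 0.0438). Shh was the 1 gene called of 7 on the notochord list, whose median log2 fold change was -0.58. Shh and Ihh were the 2 called of 12 on the hindgut list, with a median of -0.50. Summed, the notochord list ran from 192 to 233 CPM in WT and from 97.5 to 222 CPM in Sd/Sd, and the hindgut list from 631 to 812 CPM and from 572 to 811 CPM.

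Wnt1 and Rspo2 had the widest spread of the tested Wnt genes and were looked at after their values were seen. Wnt1, a ligand of the dorsal midline of the neural tube, measured 2.71, 1.00 and 0.497 CPM in WT, against 2.69, 6.84 and 0.0204 in Sd/Sd, the last being a single count against 428 counts in Sd/Sd 2. Rspo2, a limb and neural tube R-spondin, measured 3.70, 1.32 and 0.403 CPM in WT, against 2.13, 6.28 and 0.530 in Sd/Sd. Both were low in replicate 3 of either genotype and highest in Sd/Sd 2. Their log2 fold changes, 1.18 (interval -2.71 to 5.07) and 0.72 (interval -2.13 to 3.57), turned negative without Sd replicate 2, at -0.075 and -0.46. Of the dorsal neural genes, 6 of 8 tested were lower in Sd/Sd 3 than in Sd/Sd 2, such as the roof plate factor Lmx1a at 1.69 and 6.47 CPM. The abundant Msx1 and Msx2, which lateral tissues also express, were higher in Sd/Sd 3, at 130 and 101 CPM and at 51.2 and 39.0 CPM. The dorsal neural list (8 of 10 tested, 0 at 0) summed to 204 to 237 CPM in WT, against 223 to 264 in Sd/Sd, and the neural tube list (6 of 8 tested, 0 at 0) to 119 to 158 CPM and 67.3 to 178 CPM. The somite list (10 of 10 tested, 0 at 0) ran from 42.6 CPM in Sd/Sd 3 to 490 CPM in Sd/Sd 2. The part of these tissues in the spread of Wnt1 and Rspo2 was not tested.

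**Figure D4:**
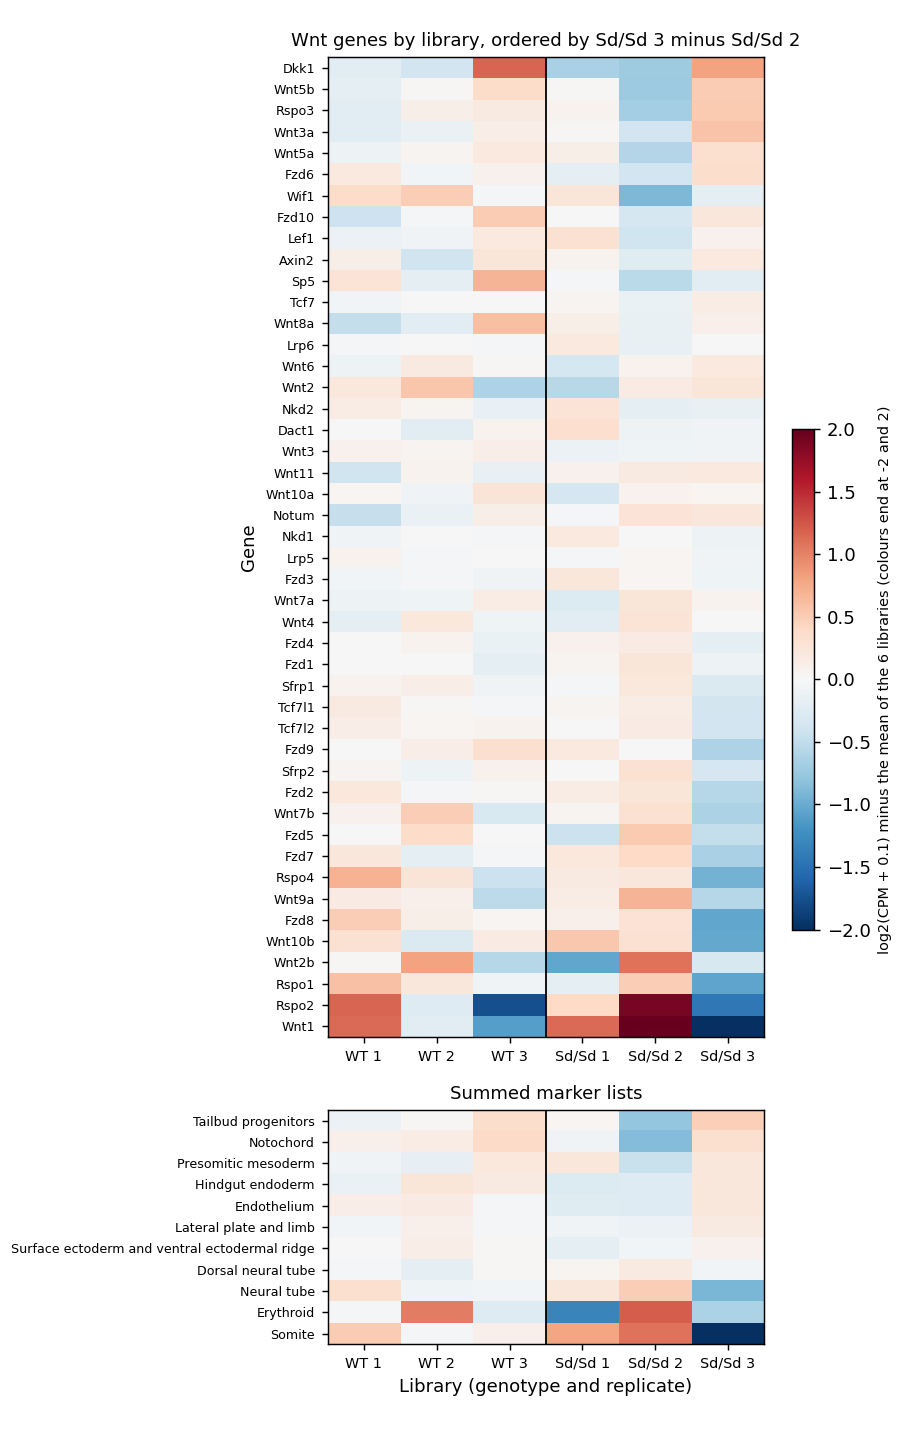
Heat map of the 46 tested Wnt genes (top) and of the summed marker lists (bottom) in each library, as log2(CPM + 0.1) minus the mean of the 6 libraries, with red above and blue below that mean and rows ordered by Sd/Sd 3 minus Sd/Sd 2. Dkk1, Wnt5b, Rspo3 and Wnt3a stand at the top with the tailbud progenitor list, and Rspo2 and Wnt1 at the bottom, where the somite list also runs from 490 CPM in Sd/Sd 2 to 42.6 CPM in Sd/Sd 3.

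A wider list of 72 other Wnt pathway genes had 69 tested members, of which 0 were higher and 0 lower at an adjusted p under 0.05 by edgeR, DESeq2 or limma-voom. At an unadjusted p under 0.05 by edgeR, 1 was higher and 2 were lower, against 0.944% and 1.95% of all tested genes (2.9% in all). The median log2 fold change of the wider list was -0.03, with 29 positive and 40 negative. Porcn, which encodes the enzyme that attaches the lipid to Wnt proteins, and Cdx4 lie on chromosome X and are listed at 0; Dkk4 had 6 counts in all. Ctnnb1, the gene of beta-catenin, measured 1280, 1228 and 1253 CPM in WT, against 1318, 1215 and 1292 in Sd/Sd (log2 fold change 0.02, interval -0.11 to 0.16), and 16 of the 20 genes of the cytoplasmic and nuclear core had an interval within 0.5 either way. The 4 others were Apc2, at 1.70 to 3.94 CPM (log2 fold change -0.24, interval -1.02 to 0.55), Pygo1, Tle1 and Tle2. Among 5 R-spondin receptor and ligase genes the median log2 fold change was -0.10, among 11 other receptor and planar polarity genes -0.05, among 15 other antagonists -0.03 and among 14 posterior targets -0.04.

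Within that list 1 gene, Frzb, lay higher and 4 genes, Vangl1, Sost, Tle2 and Sfrp4, lay lower in all Sd/Sd libraries. Over all tested genes 3.26% were separated upwards and 4.42% downwards (7.68% in all). Frzb, a secreted Wnt-binding antagonist, measured 64.5, 57.9 and 63.5 CPM in WT, against 82.9, 67.1 and 75.4 in Sd/Sd (log2 fold change 0.28, interval 0.07 to 0.48, edgeR adjusted p = 1.00). Vangl1, a planar polarity membrane protein gene, measured 34.3, 41.2 and 35.1 CPM in WT, against 30.0, 32.3 and 32.0 in Sd/Sd (log2 fold change -0.23, interval -0.44 to -0.02). Sost, which encodes the LRP-binding antagonist sclerostin, measured 10.9, 11.4 and 13.9 CPM in WT, against 10.6, 8.88 and 9.04 in Sd/Sd (log2 fold change -0.35, interval -0.68 to -0.02). Tle2, a corepressor gene, and Sfrp4, an antagonist at about 1 CPM, had log2 fold changes of -0.42 (interval -0.88 to 0.05) and -0.82 (interval -1.68 to 0.05). The adjusted p of all 5 was 1.00.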

How the data were processed

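The authors deposited raw counts per gene for 3 WT and 3 Sd/Sd libraries of 41788978 to 62296689 counts. The tools, per the submitters' processing notes, were STAR 2.5.2b, bcl2fastq 2.17.1.14, DESeq2, CASAVA and SAMtools, with the build mm9. Counter, strand setting and annotation were not stated, so overlapping genes may share reads. GENCODE M21 (GRCm38) supplied names for 32620 of 37310 identifiers and the exon lengths, which may differ from those of the counting annotation.

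Genes passing filterByExpr (minimum count 10, total 15; 15471 genes, 99.967% of counts) were tested two-sided with edgeR 4.0.16 in R 4.3.3 (TMM, robust glmQLFit, Benjamini-Hochberg, threshold 0.05). The biological coefficient of variation was 18.6%. The fit was checked on counts simulated with this same variation for every gene in both groups. That check did not cover the wider spread of the Sd/Sd libraries. CPM used TMM-scaled library sizes, the SE is the log2 fold change over the square root of F, and 95% intervals use the degrees of freedom of the fit. Because separate litters are not stated, p measures the spread among these libraries, which may be technical. An exact permutation test of 3 against 3 cannot go below p = 0.1.

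Libraries sharing a replicate number in their titles deviated together (correlations of 0.194, 0.144 and 0.275 over genes) and count as paired by the rule used, although WT 1 and Sd/Sd 2 also correlated at 0.182. All replicate pairs differed by more than sampling noise. Alternatives were DESeq2 1.42.0, limma-voom (limma 3.58.1), RLE normalization, no filter, a filter of 1 CPM in 3 libraries, no robust option, a replicate block, leaving out each library and levels without length. The Wnt genes and lists were chosen with earlier results of these data known. Each library's value is given for members with an unadjusted p under 0.05 or non-overlapping groups, the feedback genes and the 2 highest genes per kilobase of each role, and for wider-list genes by the same first criteria. Wnt3a, Sp8, Wnt1, Rspo2, Wif1, Ctnnb1, Apc2, Lmx1a, Msx1, Msx2, Sox2, Hes7, Lfng, Mesp2, Shh, Ihh, Cer1, Wnt16, Uncx and Meox1 were added after their values were seen.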

Additional observations from a re-analysis of the deposited data

How the results depend on the processing

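The count of 0 Wnt genes past the threshold, higher or lower, held in all alternatives run, and so did the 0 of the wider list. Over all tested genes, where 6 were higher and 3 lower, DESeq2 called 19 and 20, limma-voom and no robust option each 3 and 0, no filter 5 lower, and leaving out 1 library 2 to 5 higher and 0 to 1 lower. Leaving out Sd replicates 2 and 3 together, chosen after seeing the data, gave 0 lower. Without division by length, 31 genes reached 10 CPM, whereas 19 reached 10 CPM per kilobase. The units differ, so these counts do not show how stable the levels are.

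With the replicate block 0 Wnt genes passed, 8 genes were higher and 4 lower over all, and no call on a Wnt gene changed. By edgeR, Sp5 (log2 fold change -0.53, adjusted p = 0.577) and Dkk1 (-0.38, adjusted p = 0.613) then reached an unadjusted p under 0.05. So did Notum (0.31, adjusted p = 1.00). Over all 15471 tested genes, 163 higher and 413 lower reached it with the block. In CPM these 3 genes went in the same direction in all 3 same-number pairs. So did Wnt3, Wnt7b, Wnt11, Fzd1, Rspo4 and Wif1, which did not reach it. The share of all tested genes that did so was not counted, so nothing is read from this agreement. Of 644 log2 fold changes of single Wnt genes under the alternatives, 567 kept their sign and 77, of 32 genes, turned; 0 passed. With the replicate block the turned values were 0.052 for Wnt8a, -0.019 for Fzd7, -0.054 for Rspo3, -0.00062 for Lef1 and -0.017 for Sfrp2. Limma-voom gave -0.37 for Wnt1, 0.079 for Wnt8a, -0.018 for Fzd7, -0.075 for Rspo3, -0.0059 for Lef1 and -0.0081 for Sfrp2. Without Sd replicates 2 and 3 the values were -0.20 for Wnt4, 0.066 for Wnt5a, -0.27 for Wnt7a, 0.076 for Wnt8a, 0.49 for Wnt10b, 0.073 for Fzd2, 0.031 for Fzd9, 0.25 for Nkd2 and -0.0058 for Sfrp2; the 1 library left in Sd/Sd is then assumed to vary like WT.

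Leaving out 1 library gave ranges across 0 for 31 genes. For ligands these were -0.075 to 2.08 for Wnt1, -0.40 to 0.14 for Wnt2, -0.90 to 0.47 for Wnt2b, -0.11 to 0.38 for Wnt3a, -0.086 to 0.18 for Wnt4, -0.24 to 0.17 for Wnt5a, -0.40 to 0.20 for Wnt5b, -0.16 to 0.10 for Wnt6, -0.085 to 0.17 for Wnt7a, -0.38 to 0.059 for Wnt7b, -0.22 to 0.39 for Wnt8a, -0.12 to 0.52 for Wnt9a and -0.32 to 0.36 for Wnt10b. For receptors and R-spondins they were -0.24 to 0.12 for Fzd2, -0.019 to 0.15 for Fzd4, -0.37 to 0.028 for Fzd6, -0.17 to 0.29 for Fzd7, -0.28 to 0.19 for Fzd10, -0.050 to 0.12 for Lrp6, -0.46 to 1.78 for Rspo2 and -0.30 to 0.27 for Rspo3. For the others they were -0.16 to 0.13 for Axin2, -0.14 to 0.20 for Lef1, -0.0096 to 0.13 for Nkd1, -0.20 to 0.055 for Nkd2, -1.05 to 0.30 for Dkk1, -0.035 to 0.20 for Dact1, -0.21 to 0.045 for Sfrp1, -0.16 to 0.15 for Sfrp2, -0.013 to 0.13 for Tcf7 and -0.20 to 0.045 for Tcf7l1. Sp5 stayed negative, at -0.75 to -0.32, Wnt3 at -0.20 to -0.16 and Wnt11 positive, at 0.19 to 0.43; over all alternatives their adjusted p was 0.577 to 1.00, 0.786 to 1.00 and 0.802 to 1.00. The cause was not tested. The spread between 3 libraries a group limits the precision.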

Other observations

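Cer1, which encodes a secreted antagonist of Nodal, BMP and Wnt ligands in the anterior presomitic mesoderm and is on the wider list, was looked at after its values were seen. It measured 9.10, 8.53 and 8.34 CPM in WT, against 12.5 and 7.52 in Sd/Sd 1 and 2 and 0.0204, a single count, in Sd/Sd 3. Somite genes were low in the same library: Uncx stood at 0.143 CPM there, against 5.64 to 26.9 CPM in the other 5 libraries, and Meox1 at 12.8 CPM, against 121 to 265 CPM. The part of the somite list, at 42.6 CPM in that library, in the Cer1 value was not tested. Wnt16, a ligand of the wider list, was also lowest there, at 0.816 CPM against 3.84 to 5.37 CPM in the other 5 libraries.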
